A study of Mus musculus with 8 samples.

Results

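Accessible chromatin was examined at the 4 genes that make up the RUNX transcription factors in the mouse, *Runx1*, *Runx2*, *Runx3* and *Cbfb*. The regions belonging to these loci were all FAIRE-positive regions overlapping an annotated gene span (GENCODE vM21, mm10) or the 50 kb on either side of it. FAIRE (formaldehyde-assisted isolation of regulatory elements) recovers DNA that is depleted of nucleosomes, and the deposited data were one list of peaks per library. After merging of overlapping peaks from the 8 lists, 44 of 37230 regions (164 of 129466 peaks) lay at these loci, with 19 at *Runx1*, 15 at *Runx2*, 3 at *Runx3* and 7 at *Cbfb*. The libraries came from EpH4 cells, a mouse mammary gland epithelial line, and from EpRas cells, a derivative of it transformed by active H-Ras. Each line was left untreated or given TGF-β3 at 1 ng/ml, both for 8 days, and each of the 4 groups held 2 replicates. EpRas cells were grown in medium with less serum than EpH4 cells, so serum and Ras cannot be told apart here, and the lines are single cultures related by descent. A region with no peak in a library was not called there, which does not show that it was closed, and a weaker signal in every cell cannot be told apart from a signal in fewer cells.

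The RUNX proteins carry the Runt domain, which contacts DNA, and CBFβ, encoded by *Cbfb*, is the common partner that binds no DNA itself but stabilizes the binding of each of them. Runx1 is best known from blood stem cells, Runx2 from bone and Runx3 from T cells and sensory neurons, and Runx1 and Runx2 are also made in mammary epithelium. Each of the 3 *Runx* genes has a distal promoter, P1, and a proximal promoter, P2, which give proteins with different amino termini. RUNX proteins work with Smads, the intracellular mediators of TGF-β, and with AP1, a family of Jun and Fos dimers downstream of Ras. AP1, ETS and RUNX are families whose motifs the study examined in its accessible regions.

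The P1 promoters of the 3 *Runx* genes held the same arrangement of RUNX motifs, a pair of TGTGGTT motifs in the reverse orientation, where the letters read AACCACA, separated by 1 base. The sites are shown because this is the sequence that the P1 promoters share and because one of them lay inside a FAIRE-positive region. They were read from RefSeq promoter windows on GRCm38.p6, the build to which mm10 belongs, and printed 5′ to 3′ on the strand of the gene, with RUNX matches in capitals. The *Runx1* site lay at chr16:92826025-92826054 on the minus strand, the *Runx2* site at chr17:44814583-44814612 on the minus strand and the *Runx3* site at chr4:135120503-135120532 on the plus strand.
Runx1 P1: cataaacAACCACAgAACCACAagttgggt
Runx2 P1: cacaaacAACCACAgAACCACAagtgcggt
Runx3 P1: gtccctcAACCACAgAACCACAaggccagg
Of 32851 windows of 300 bases around RefSeq starts (250 before and 50 after), 5.27% held at least 1 RUNX match and 67 (0.204%) held at least 2. The pair with this spacing, searched for after it had been seen at *Runx1*, was in 5 windows, those of the 3 P1 promoters, of *Gm16225*, whose window overlaps that of *Runx3* P1 on the opposite strand, and of *Olfr24*. The *Runx2* P1 window held a further match and so 3 in all. The windows of *Runx1* P2, *Runx3* P2 and *Cbfb* held 0 RUNX matches, and *Runx2* P2 was not analysed here. Their GC content was 69%, 77.3% and 69.7%, against 45%, 45.3% and 63.7% at the P1 promoters of *Runx1*, *Runx2* and *Runx3* and a median of 52.7% over all windows.

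Of the 44 regions, only that at the *Runx1* P2 promoter, chr16:92697291-92697532, was called in every library of one line and in none of the other, with 4 of 4 EpRas libraries and 0 of 4 EpH4 libraries. Over all regions 2.73% separated the lines in this way in either direction, and 1.98% with calls in EpRas cells. The 250 bases before the RefSeq P2 start, chr16:92697330-92697579 on the minus strand, are printed because they cover most of that region, with the single ETS match (CCGGAA on either strand) in capitals.
Runx1 P2: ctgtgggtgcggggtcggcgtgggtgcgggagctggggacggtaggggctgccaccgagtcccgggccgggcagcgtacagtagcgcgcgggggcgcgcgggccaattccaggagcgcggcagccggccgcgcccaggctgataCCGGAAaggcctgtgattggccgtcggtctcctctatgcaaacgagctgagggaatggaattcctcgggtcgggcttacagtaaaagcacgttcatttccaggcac
An ETS match was in 14.9% of all RefSeq promoter windows. A match describes the letters only and does not show that a factor was bound.

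Further sequences are shown because their calls followed a group, or were shared by all libraries. They comprise the 4 regions called in both replicates of a single group and nowhere else, and 2 of the 5 called in all 8 libraries, one with and one without an AP1 motif in the printed stretch. Of all regions, 0.424% were called in both untreated EpH4 libraries alone and 0.86% in both treated EpH4 libraries alone. For EpRas cells these shares were 0.451% untreated and 4.21% treated, and 11.4% of all regions were called in all 8 libraries. Letters are from the plus strand of GRCm38.p6, and capitals mark the AP1 motif TGAGTCA or its reverse complement. The *Runx1* region at +2.37 kb (chr16:92823666-92823901) and the *Runx2* region at +355.6 kb (chr17:44459091-44459387) were called only in EpH4 cells treated with TGF-β, the *Runx2* region at +47.2 kb (chr17:44767481-44767775) only in EpRas cells treated with TGF-β, and the *Runx2* region at +227.1 kb (chr17:44587515-44587791) only in untreated EpH4 cells. The *Runx2* region at +314.3 kb (centre, chr17:44500374-44500673) and the *Runx1* region at +47.8 kb (centre, chr16:92778184-92778483) were called in all 8 libraries. Distances are from the first P1 start site (for *Cbfb*, the first start site) to the middle of the region, counted along the direction of transcription.
Runx1 intronic: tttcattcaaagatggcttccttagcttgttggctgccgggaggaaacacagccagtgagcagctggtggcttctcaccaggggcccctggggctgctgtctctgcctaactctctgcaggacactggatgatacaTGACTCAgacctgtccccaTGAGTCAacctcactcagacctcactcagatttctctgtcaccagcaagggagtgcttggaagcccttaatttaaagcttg
Runx2 downstream: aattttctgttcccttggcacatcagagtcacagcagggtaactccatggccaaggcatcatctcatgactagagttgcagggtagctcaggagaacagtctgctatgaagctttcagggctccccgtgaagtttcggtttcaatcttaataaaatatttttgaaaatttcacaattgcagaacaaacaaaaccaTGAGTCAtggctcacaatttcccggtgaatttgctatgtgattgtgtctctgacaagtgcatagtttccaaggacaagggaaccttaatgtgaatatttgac
Runx2 between P1 and P2: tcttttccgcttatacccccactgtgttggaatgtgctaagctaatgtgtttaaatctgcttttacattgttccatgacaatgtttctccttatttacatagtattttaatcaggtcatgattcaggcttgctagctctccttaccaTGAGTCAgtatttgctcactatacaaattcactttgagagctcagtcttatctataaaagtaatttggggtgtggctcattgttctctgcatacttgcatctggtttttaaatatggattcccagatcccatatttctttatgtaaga
Runx2 intronic, untreated EpH4: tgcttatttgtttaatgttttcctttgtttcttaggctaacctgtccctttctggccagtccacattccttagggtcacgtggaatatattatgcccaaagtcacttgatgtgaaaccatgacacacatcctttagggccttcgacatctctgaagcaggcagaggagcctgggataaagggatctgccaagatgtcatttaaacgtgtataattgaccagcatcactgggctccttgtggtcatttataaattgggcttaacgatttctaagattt
Runx2 intronic, all libraries: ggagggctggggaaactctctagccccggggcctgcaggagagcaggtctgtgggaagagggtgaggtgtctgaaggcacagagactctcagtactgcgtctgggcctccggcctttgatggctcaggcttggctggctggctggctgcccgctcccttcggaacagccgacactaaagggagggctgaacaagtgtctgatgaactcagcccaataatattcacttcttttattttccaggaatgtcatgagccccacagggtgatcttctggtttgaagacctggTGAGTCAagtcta
Runx1 intronic, all libraries: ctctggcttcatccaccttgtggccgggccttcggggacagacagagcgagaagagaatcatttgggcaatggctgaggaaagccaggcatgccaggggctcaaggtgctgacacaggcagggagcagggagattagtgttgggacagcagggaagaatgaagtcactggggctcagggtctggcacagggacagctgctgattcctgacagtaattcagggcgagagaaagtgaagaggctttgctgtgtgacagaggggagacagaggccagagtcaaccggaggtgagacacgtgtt

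The peak lists differed in length, from 10821 to 27337 peaks, and the longest was that of replicate 1 of EpRas cells with TGF-β. The lists give no read counts, so the depth of the libraries is unknown. The share of peaks on chromosome 16, which carries *Runx1*, was 3.70 to 4.09% in the EpH4 libraries and 2.80 to 2.98% in the EpRas libraries, with no overlap. Promoter regions of *Krt14*, a keratin of mammary epithelium, were called in 8 of 8 libraries, and those of *Cdh1*, which encodes E-cadherin, in 4 of 4 EpH4 and 0 of 4 EpRas libraries. *Krt8* was called in 5 libraries, *Krt18* in 3, *Epcam*, *Krt5* and *Trp63* in 0, and of the mesenchymal genes *Fn1* in 7, *Vim* in 1 and *Cdh2* in 0. No library called a promoter region of the leukocyte, endothelial or adipocyte markers *Ptprc*, *Cd3e*, *Pecam1*, *Cdh5* and *Adipoq*. In all, 57.6% of 21951 protein-coding genes had no promoter region in any library.

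Of the 7 promoters of the RUNX factor genes, *Runx1* P1, *Runx1* P2 and the *Cbfb* promoter had a region within 2 kb of an annotated start site, 5 regions in all. None of these 5 was called in all 8 libraries, beside 11.4% of all regions. P1 and P2 of *Runx2* and P1 and P2 of *Runx3* had no region in any library. Counted by gene, *Runx2* and *Runx3* thus had no promoter region, as was so for 57.6% of protein-coding genes. Because the score of a peak has no stated unit, it was used as a percentile within its own list, with 100 as the highest and 0 for a region without a peak.

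The *Runx1* P2 region ranked at percentiles 45.9 and 53.7 in the untreated EpRas libraries, and at 22.1 and 23.7 in the treated EpRas libraries. No EpH4 library had a peak there, so the lines did not overlap. The mean was higher in EpRas by 36.3 percentile points (exact permutation test, two-sided, 4 against 4 libraries, p = 0.0286, the smallest that this design can give). Calls in every library of one line and none of the other always give this p, so it only repeats the call pattern. After Benjamini-Hochberg adjustment over all 37230 regions the p was 0.46, and in no region of the whole set was an adjusted p under 0.05, in either contrast. Of all regions, 1.98% were called in every EpRas library and no EpH4 library, and 1.41% of the 11806 regions within 2 kb of any annotated start. When each list was reduced to its 10821 highest-scoring peaks, the length of the shortest, the region stayed called in 2 of 4 EpRas libraries, the untreated ones. A second P2 region, chr16:92696643-92696889, over exon sequence of the P2 transcripts, was called in replicate 1 of untreated EpRas cells (percentile 19) and replicate 1 of treated EpRas cells (14.7).

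The start of *Runx1* P1 was covered by chr16:92825900-92826240, which contains the RUNX pair printed above and 3 RUNX matches within 500 bp around its middle. In EpRas cells it ranked at percentiles 50.6 and 8.15 when untreated, and at 54.6 and 67.6 after TGF-β. Among EpH4 libraries it had a peak only in replicate 1 with TGF-β, at 14.0, so that 1 EpH4 value lay above the lowest EpRas value. The difference between the lines was 41.75 percentile points (exact permutation p = 0.0571, adjusted p = 0.666), and in lists of equal length the region was called in 2 EpRas and 0 EpH4 libraries. The neighbouring region at −1.75 kb, chr16:92827788-92828016, was called in 3 EpH4 libraries (percentiles 32.4, 23.7 and 56.8) and 2 EpRas libraries (41.3 and 45.7). It therefore followed neither the line nor the treatment.

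The *Cbfb* promoter region, chr8:105170355-105170633, was called in replicate 1 of each of the 4 groups and in no replicate 2. The percentiles were 14.6 in untreated and 56.1 in treated EpH4 cells, and 34.8 in untreated and 29.4 in treated EpRas cells. Replicate 1 had the longer list in 3 of the 4 groups, the exception being untreated EpH4 cells. The means of the lines differed by −1.63 percentile points (EpRas minus EpH4, exact permutation p = 1).

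**Figure D1:**
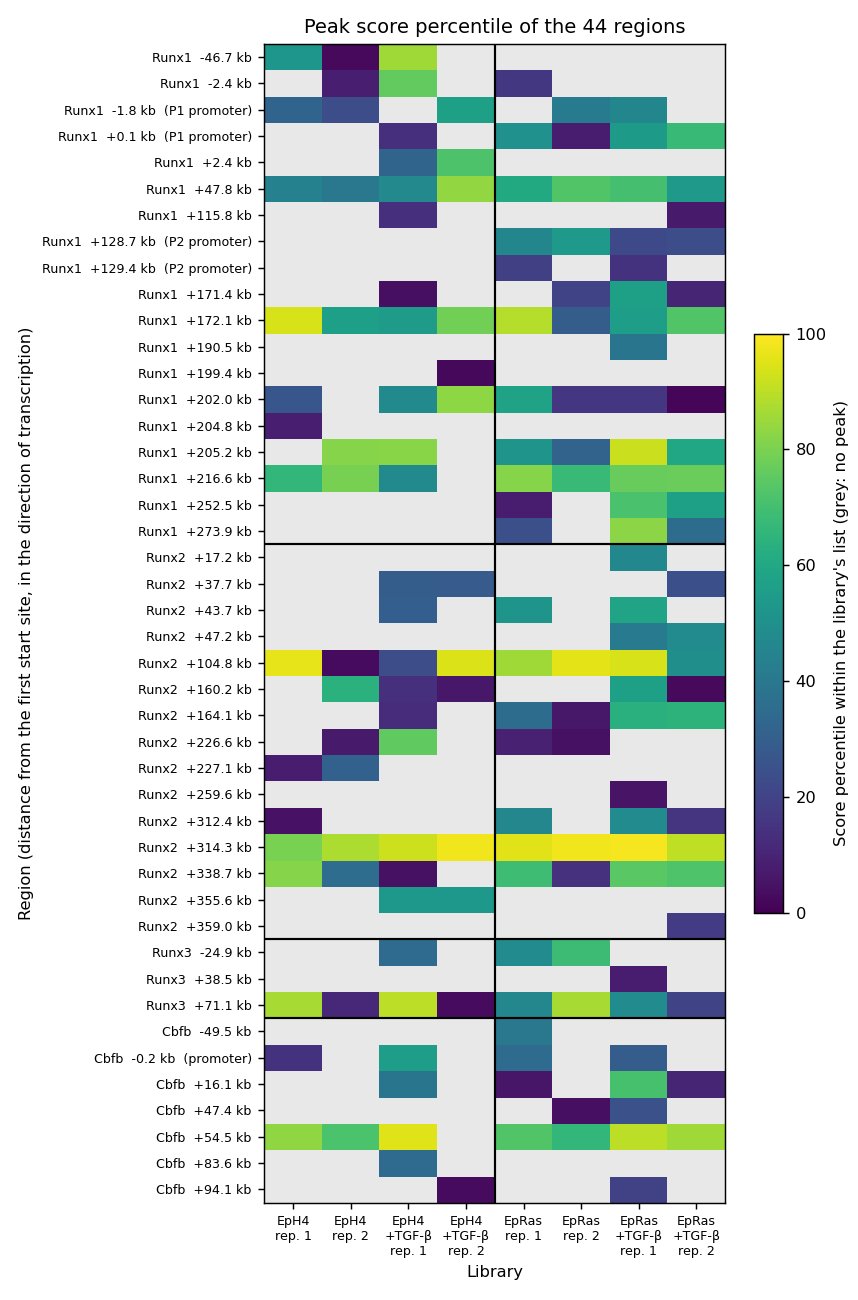
Score percentile of the 44 regions (rows, labelled by locus and distance from the first start site in kb) in the 8 libraries (columns, EpH4 left and EpRas right of the line), with grey where a library had no peak. The *Runx1* P2 row at +128.7 kb is coloured in all 4 EpRas columns and grey in all 4 EpH4 columns, and the 5 rows coloured throughout are 2 at *Runx1*, 2 at *Runx2* and 1 at *Runx3*.

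Away from its promoters, *Runx1* had 3 intronic regions between P1 and P2, 8 intronic regions downstream of P2, and 4 regions in the flanks. The region at +47.8 kb (chr16:92777981-92778685), between P1 and P2, was called in all 8 libraries, with percentiles of 43.8, 39.9, 46.9 and 83.7 in EpH4 and 60.6, 72.9, 70.5 and 54.0 in EpRas cells (here and below in the order untreated replicates 1 and 2, then treated replicates 1 and 2). The values of the lines overlapped (difference 10.9, exact permutation p = 0.343). The region at +172.1 kb (chr16:92653839-92654238), in an intron downstream of P2, was also called throughout, at 94.1, 56.3, 55.3 and 78.8 in EpH4 and 88.7, 29.5, 56.0 and 72.9 in EpRas cells.

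An intron of the P1 transcripts contained the region at +2.37 kb, whose sequence with a pair of AP1 motifs is printed above. It was called in both EpH4 libraries with TGF-β, at percentiles of 32.2 and 72.2, and in no other library. Over all regions, 0.86% had this pattern. A pair of regions in the downstream flank, at +252.5 and +273.9 kb, were each called in 3 of 4 EpRas and 0 of 4 EpH4 libraries. At +252.5 kb the EpRas values were 7.73, no peak, 71.2 and 56.8, and at +273.9 kb, which lies at the promoter of *Gm49722*, they were 24.6, no peak, 82.7 and 35.2. Both differences between the lines, of 33.9 and 35.6, had an exact permutation p of 0.143. In the other direction, the region at −46.7 kb (chr16:92872673-92872977), inside *Gm49723*, was called in 3 of 4 EpH4 libraries (52.5, 2.47 and 85.8) and 0 of 4 EpRas libraries (exact permutation p = 0.143). The share of all regions with calls in 3 of 4 libraries of one line and 0 of 4 of the other was not computed. The intronic region at +216.6 kb was called in 7 libraries, at 66.0, 79.3, 47.8 and no peak in EpH4 and at 81.8, 67.8, 76.6 and 77.1 in EpRas cells, a difference of 27.5 (exact permutation p = 0.171).

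*Runx2* had 12 intronic regions and 3 in its downstream flank, and no region in its upstream flank. The strongest region at any of the 4 loci was at +314.3 kb, chr17:44500208-44500839, with percentiles of 79.8, 87.5, 92.4 and 97.7 in EpH4 and 95.7, 97.8, 98.5 and 90.4 in EpRas cells. It lies within the gene span only through an intron of a single annotated *Runx2* transcript. The same holds for the region at +227.1 kb and for some other intronic regions downstream of P2. The values of the lines overlapped and differed by 6.25 (exact permutation p = 0.2). The region at +104.8 kb (chr17:44709781-44710276), at the promoter of the antisense gene *Runx2os2*, was called throughout but with a wide range, at 96.4, 3.12, 23.7 and 94.6 in EpH4 and 85.6, 96.0, 93.9 and 50.0 in EpRas cells. For it the replicates of both EpH4 groups stood further apart than the means of the lines (difference 26.9, exact permutation p = 0.4).

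The intronic region of *Runx2* at +164.1 kb, chr17:44650516-44650873, resembled *Runx1* P1 in its calls. Its percentiles were 35.2, 6.30, 63.4 and 64.5 in EpRas cells, and its only EpH4 peak was in replicate 1 with TGF-β, at 12.6. The difference was 39.2 (exact permutation p = 0.0571, adjusted p = 0.666). In lists of equal length the region was called in 2 EpRas and 0 EpH4 libraries. Over both lines its mean was 10.4 in untreated and 35.1 in treated libraries, a difference of 24.8 (exact permutation p = 0.257).

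A few *Runx2* regions were called in both replicates of a single group and nowhere else. The region at +47.2 kb, between P1 and P2, was called in EpRas cells with TGF-β at 40.7 and 48.3, a pattern of 4.21% of all regions. In EpH4 cells with TGF-β it was the region at +355.6 kb, in the downstream flank, at 53.5 and 53.4, both calls remaining in lists of equal length. Of all regions, 0.86% were called in both libraries of that group alone. Untreated EpH4 cells had the intronic region at +227.1 kb, at 8.09 and 31.0, a pattern of 0.424% of all regions. With 2 libraries against 2 within a line no exact test can pass 0.05, and over both lines the exact permutation p for TGF-β was 0.429 for each of these regions. The region at +37.7 kb, at the promoter of *Supt3*, which overlaps *Runx2*, was called in 3 libraries, all of them treated, at 29.6 and 28.8 in EpH4 and 24.5 in EpRas cells (exact permutation p = 0.143). How many of all regions were called in 3 treated libraries and no untreated library was not computed.

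**Figure D2:**
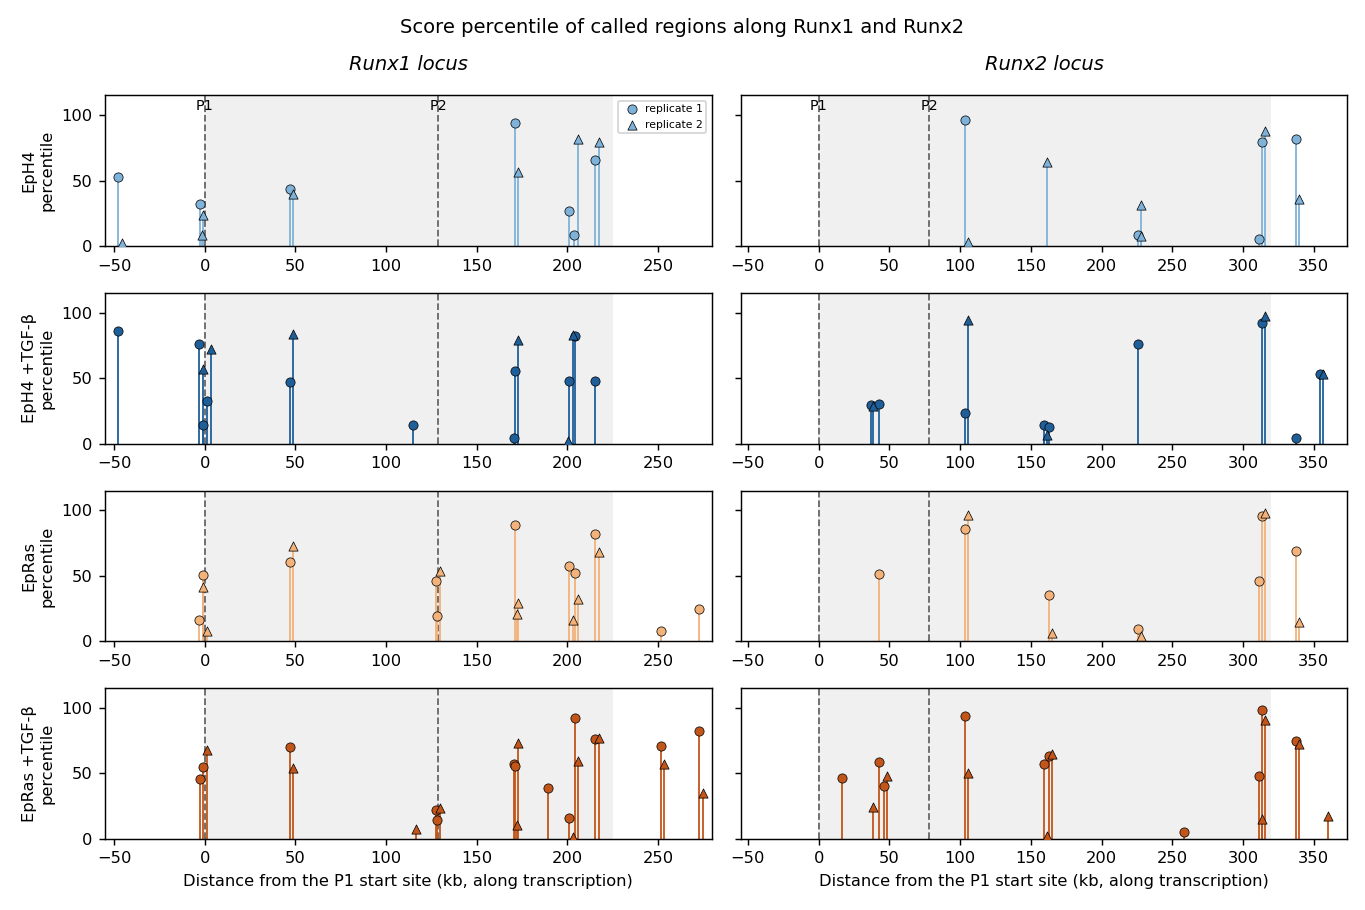
Score percentile (vertical axis) of each called region against its distance from the P1 start site in kb along the direction of transcription, for *Runx1* (left) and *Runx2* (right), one row of panels per group. Circles are replicate 1 and triangles replicate 2, offset slightly sideways so that both can be seen, the grey band is the gene span and dashed lines mark P1 and P2. At *Runx1* P2 points stand only in the EpRas rows, and at *Runx2* P1 and P2 there are none.

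*Runx3* had the fewest regions. The region at +71.1 kb (chr4:135191526-135192063), in the downstream flank, was called in all 8 libraries, at 86.9, 11.0, 90.1 and 2.97 in EpH4 and 46.2, 86.9, 48.0 and 20.5 in EpRas cells. The EpH4 replicates of each treatment spanned nearly the whole range, and the lines differed by 2.65 (exact permutation p = 0.886). At −24.9 kb, in the upstream flank, a region was called in both untreated EpRas libraries (48.3 and 68.5) and in replicate 1 of treated EpH4 cells (35.1). The region at +38.4 kb, in an intron downstream of P2, was called only in replicate 1 of treated EpRas cells, at 7.74.

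Of the 7 regions at *Cbfb*, 3 lay at promoters of downstream neighbours, *D230025D16Rik*, *B3gnt9*, and *Fbxl8* with *Tradd*. The first of these, at +54.5 kb, was called in 7 libraries, at 83.5, 71.5, 94.99 and no peak in EpH4 and at 72.8, 66.2, 90.2 and 85.6 in EpRas cells. In the gene itself, the intronic region at +16.1 kb was called in 4 libraries, at 38.7 in replicate 1 of treated EpH4 cells and at 6.18, no peak, 70.8 and 10.2 in EpRas cells. The TGF-β difference of this region was 28.4 (exact permutation p = 0.143). The region over the untranslated 3′ part of the gene at +47.4 kb was called in 2 libraries, and that in the upstream flank at −49.5 kb in 1.

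Counted over the locus, *Runx1* had 7, 7, 11 and 6 called regions in EpH4 cells, and 11, 9, 13 and 11 in EpRas cells, libraries in the same order as above. The ranges of the lines overlapped through replicate 1 of treated EpH4 cells. The means were 7.75 ± 2.22 (SD, n = 4) in EpH4 and 11 ± 1.63 (SD, n = 4) in EpRas cells, a difference of 3.25 regions (exact permutation p = 0.114, adjusted p = 0.598 over all 17752 loci). Here and below, all loci are the protein-coding loci with at least 1 region. *Runx2* had 5, 6, 9 and 5 called regions in EpH4 and 7, 5, 10 and 9 in EpRas cells. Its means were 5.75 ± 0.957 (SD, n = 4) without and 8.25 ± 2.22 (SD, n = 4) with TGF-β, a difference of 2.5 (exact permutation p = 0.143, adjusted p = 1). Replicate 2 of treated EpH4 cells stood at the untreated level. Without that library, which had the shortest list, the difference was 3.58 and the exact permutation p 0.0286, the smallest possible. It held the lowest treated count, so leaving it out favours a small p. With any other library left out, the exact permutation p was 0.143 to 0.257. The share of all loci passing under the same omission was not computed.

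*Runx3* had 1, 1, 2 and 1 called regions in EpH4 and 2, 2, 2 and 1 in EpRas cells, and *Cbfb* had 2, 1, 4 and 1 in EpH4 and 4, 2, 5 and 2 in EpRas cells. The lines differed by 0.5 regions at *Runx3* (exact permutation p = 0.486) and by 1.25 at *Cbfb* (exact permutation p = 0.314). TGF-β moved *Runx3* by 0 regions, *Cbfb* by 0.75 (exact permutation p = 0.743) and *Runx1* by 1.75 (exact permutation p = 0.4), and the lines differed by 1.5 at *Runx2* (exact permutation p = 0.4). Thus 0 of the 4 loci passed an unadjusted p of 0.05 in either contrast. Among all loci 6.8% did so between the lines, 6.21% with more regions in EpRas and 0.586% with more in EpH4. For TGF-β 0.575% did so, 0.552% with more regions in treated and 0.0225% with more in untreated cells. No locus passed after adjustment, the smallest adjusted p being 0.42 between the lines and 1 for TGF-β.

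The direction of these differences was that of most loci. A higher mean in EpRas cells was found at 70.03% of all loci and a higher mean with TGF-β at 64.6%. The ratio of EpRas to EpH4 was 1.42 at *Runx1* and had a median of 1.29 over all loci, and the ratio of treated to untreated was 1.43 at *Runx2* and had a median of 1.15. When lists were cut to equal length, *Runx1* had 6 ± 0.816 regions (SD, n = 4) in each line, *Runx2* had 3.5 ± 1.29 without and 4.25 ± 0.957 with TGF-β (SD, n = 4), and *Cbfb* had 1.5 ± 0.577 in each line (SD, n = 4). *Runx3* then had 2 regions in both untreated and 0 in both treated EpRas libraries, and 1, 0, 1 and 1 in EpH4 cells. Without the library with the longest list, the differences between the lines were 2.58 at *Runx1*, 0.75 at *Runx2* and 0.667 at *Cbfb*.

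Of the scalings tried, that to the chromosome brought the *Runx1* line difference under 0.05 and that to the whole list did not. Per 1000 peaks on chromosome 16, the *Runx1* locus had 14.3, 14.5, 15.7 and 13.5 called regions in EpH4 and 22.1, 23.3, 15.9 and 22.4 in EpRas cells. The lines then did not overlap, although the lowest EpRas value, from the longest list, lay just above the highest EpH4 value. The difference was 6.45 (exact permutation p = 0.0286). On this scale 4.38% of all loci had a p under 0.05 with higher values in EpRas and 5.37% with lower values, and the smallest adjusted p of any locus was 0.293. Per 10000 peaks of the whole list, the means of the *Runx1* locus were 5.66 in EpH4 and 6.05 in EpRas cells, a difference of 0.392 (exact permutation p = 0.429). The smaller share of EpRas peaks on chromosome 16 enters this scale as its divisor, and its part in the result was not tested.

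**Figure D3:**
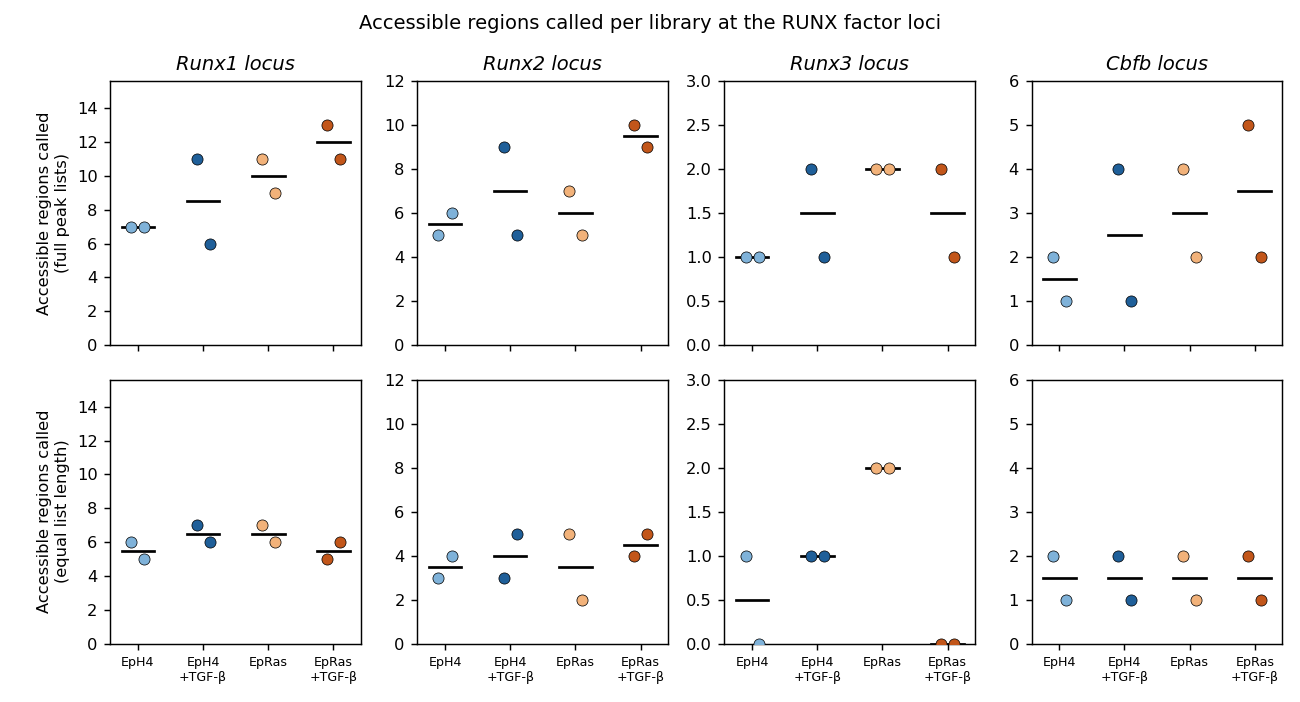
Number of accessible regions called per library at each locus (vertical axis, starting at 0), for full peak lists (top) and for lists cut to 10821 peaks (bottom). Points are libraries, horizontal lines are means of the 2 replicates; *Runx1* runs from 6 to 13 regions in full lists and from 5 to 7 in lists of equal length.

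Per length, *Runx1* was the most densely covered of the 4 loci. The number of regions called per 100 kb of window and library was 2.89 ± 0.771 (SD, n = 8) at *Runx1*, 1.78 ± 1.02 at *Cbfb*, 1.67 ± 0.494 at *Runx2* and 0.954 ± 0.340 at *Runx3*, against a median of 1.29 over all loci. *Runx1* stood above each of the other loci in 8 of 8 libraries. *Runx2* exceeded *Cbfb* in 3 of 8 libraries, so that the order of this pair was not settled beyond their spread, and it exceeded *Runx3* in 7 of 8. Among all loci the *Runx1* window stood at percentile 82.3 for merged regions per 100 kb, *Cbfb* at 73.1, *Runx2* at 59.3 and *Runx3* at 32.8.

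Across single regions, 28 of 44 (63.6%) had a higher mean percentile in EpRas cells and 32 of 44 (72.7%) a higher mean with TGF-β, where 68.1% and 68.3% of all regions did. The median differences were 6.74 and 5.47 percentile points, beside 5.54 and 4.59 over all regions. One region, *Runx1* P2, had an unadjusted p under 0.05 between the lines, where 4.72% of all regions had one with higher values in EpRas and 1.49% with higher values in EpH4. For TGF-β the count was 0, with 1.21% of all regions higher and 0.145% lower. Of the 44 regions 1 separated the lines, the same P2 region, whose p follows from its calls. The share over all regions was 2.73% in either direction. For the treatments 0 of the 44 did so, beside 0.338% (0.32% called in every treated and no untreated library, and 0.0188% the reverse). No region at these loci was called in both untreated EpRas libraries alone, a pattern of 0.451% of all regions. Calls in all 8 libraries were found for 5 of 44 regions and calls in a single library for 9 of 44, with 11.4% and 31.6% over all regions. Within EpH4 cells 3 regions were gained with TGF-β (called in both treated and no untreated library) and 1 was lost, where the backgrounds were 3.27% and 1.68%. Within EpRas cells 2 were gained and 2 lost, with backgrounds of 7.64% and 0.927%.

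Motifs were counted in the 27 distal regions of *Runx1* and *Runx2*, those over 2 kb from any annotated start site. TGAGTCA was present on either strand within 500 bp around the middle of 17 of these 27 regions (63%, 95% Wilson interval 44.2 to 78.5%). Over the distal regions of all 4 loci the AP1 motif was present in 19 of 33 (57.6%, interval 40.8 to 72.8%). The share over all 25424 distal regions, 46.7%, lay inside both intervals. A RUNX motif (TGTGGTT) was present in 3 of 27 regions, 11.1% with an interval of 3.85 to 28.1%, beside 17.9% of all distal regions, and an ETS motif (CCGGAA) in 1 of 27, beside 6.98%. None of the 3 with a RUNX match was at *Runx2*. At *Runx3* and *Cbfb* 2 of 6 distal regions held AP1, 2 held RUNX and 0 held ETS. Over all 44 regions, promoters included, the shares were 50% for AP1, 18.2% for RUNX and 11.4% for ETS, beside 37.0%, 15.1% and 14.9% of all regions.

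**Figure D4:**
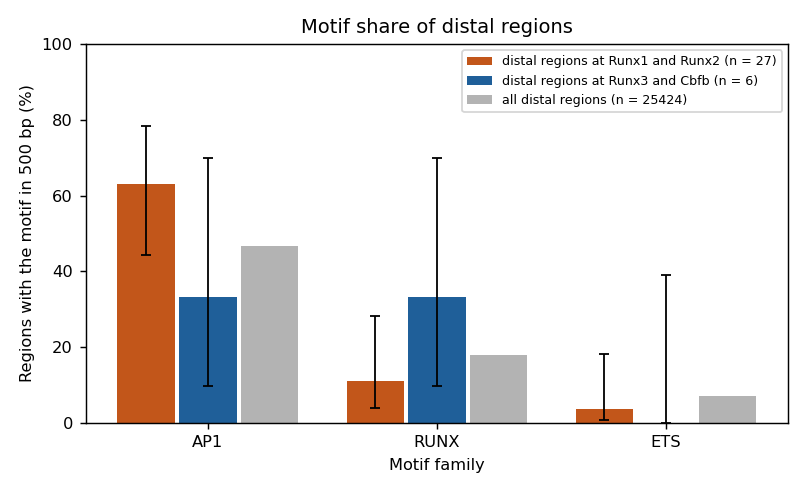
Percent of distal regions with an AP1, RUNX or ETS motif in the 500 bp around the middle (vertical axis, starting at 0), for *Runx1* with *Runx2* (n = 27), *Runx3* with *Cbfb* (n = 6) and all distal regions (n = 25424). Error bars are 95% Wilson intervals and cover counting error only; the AP1 share of 63% at *Runx1* and *Runx2* has the overall share of 46.7% within its interval.

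Other genes of the pathway were followed through lists of known partners and targets. Of 17 RUNX partners and co-regulators, which include the Tle and Cbfa2t corepressors, Smads and acetyltransferases, 15 had a region at their locus. *Smad2* and *Smad4* had none, so *Smad3* was the only Smad measured. For 13 of the 15 partners the mean number of called regions was higher in EpRas cells and for 2 lower. Their median difference was 0.75, beside 0.5 over all loci. Of all loci 70.03% had a higher mean in EpRas cells and 64.55% a higher mean with TGF-β. With TGF-β 11 were higher, 3 lower and 1 equal (median 0.5, beside 0.25). Of 16 genes known as RUNX targets in bone, blood or epithelium, 14 had a region, 11 higher, 2 lower and 1 equal in EpRas cells (median 0.875) and 10 higher, 2 lower and 2 equal with TGF-β (median 0.25). None of these 29 loci had an unadjusted exact permutation p under 0.05 in either contrast, and in none did the lines or treatments stand apart without overlap. Such a p was found at 6.8% of all loci between the lines and at 0.575% for TGF-β.

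The loci whose calls, divided by the length of each list, followed *Runx1* most closely over the 8 libraries were *Txn2* (Pearson r = 0.923), *Ninj2* (0.848) and *Dock8* (0.812), of 1647 loci on other chromosomes with at least 10 regions. For *Runx2* they were *Sox5* (0.854), *Myo16* (0.832) and *Klf6* (0.821) of 1541. The 8 points of each correlation share their libraries and the list lengths, and the values are given as a description.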

How the data were processed

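FAIRE-seq libraries of EpH4 and EpRas cells, untreated or treated with TGF-β, were analysed from 1 peak list per library. The authors sequenced on an Ion Proton, trimmed reads, aligned them with Bowtie2 to mm10 and called peaks with MACS2 2.0.9 (tools as in the submitters' processing notes and the methods), each replicate on its own. The deposited files hold peak positions and a score, the unit of which is not given in the sources used here, so it was used as a rank within the list. Read counts were not used here, depth is therefore unknown, and an uncalled region is not shown to be closed.

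Peaks of the 8 lists overlapping by at least 1 bp were merged, and a region was called in a library if one of its peaks overlapped it. Gene spans and start sites came from GENCODE vM21 (basic set) on GRCm38.p6, exons and introns from the comprehensive set. P1 and P2 were clusters of protein-coding start sites over 5 kb apart. Differences were tested by an exact two-sided permutation test over all 70 assignments of 8 libraries (smallest p 0.0286), run on every locus or region and adjusted by the Benjamini-Hochberg method over all of them. The procedure was tested on simulated data. Motifs were matched exactly on both strands.

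The genes and lists were chosen with earlier results of these data known. Regions were named by a fixed rule: those within 2 kb of a start site of a RUNX factor gene, per locus the 3 with the largest difference in each contrast, those that separated the lines or treatments, and the 3 strongest called in all libraries; the *Runx1* regions at −46.7 and +202.0 kb, the *Runx2* regions at +227.1 and +37.7 kb, and the *Cbfb* regions at +47.4 kb and at the *B3gnt9*, *Fbxl8* and *Tradd* promoters were named after their values were seen. The methods describe the replicates as biological, and their number limits every p. Alternatives comprised equal list lengths, list-length and chromosome scaling, the upper part of each list by score, other windows, other motif settings, a replicate block and leaving out each library. Peaks were also counted in place of merged regions. Software was Python 3.11.15, NumPy 2.4.6, pandas 2.3.3, SciPy 1.17.1, pysam 0.24.0 and matplotlib 3.10.9.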

Additional observations from a re-analysis of the deposited data

Results flagged for a closer look

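At 2 of the 44 regions, and at 616 of all 37230 regions (1.66%), every treated library moved one way against the untreated libraries in EpRas cells and the opposite way in EpH4 cells. The intronic *Runx1* region at +202.0 kb (chr16:92623909-92624350) had percentiles of 26.6, no peak, 47.6 and 83.0 in EpH4 and 57.5, 15.83, 15.79 and 1.55 in EpRas cells, in the order untreated then treated replicates. The treated mean minus the untreated mean was 52.05 in EpH4 and −28.0 in EpRas cells, so that the lines differed by −80.1 (EpRas minus EpH4). The *Runx2* region at +338.7 kb (chr17:44475957-44476290), in the downstream flank, had 81.9, 35.8, 4.40 and no peak in EpH4 and 68.9, 14.4, 74.4 and 72.6 in EpRas cells. There it was −56.6 in EpH4 and 31.9 in EpRas cells, a difference of 88.5. The difference between the lines was not tested for either region. Percentiles depend on the length of each list, which ran from 10821 to 27337 peaks, and at the *Runx1* region the EpRas groups were kept apart by only the values 15.83 and 15.79.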

How the results depend on the processing

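Over the 4 loci and both contrasts, 61 of 80 alternatives that kept all libraries left the direction and the side of the 0.05 threshold as reported. Among these, counts of peaks in place of merged regions equalled the reported counts at each locus. The replicate block can neither change a difference nor pass 0.05. Neither therefore speaks to the stability of the results. Counts also equalled the reported ones in every library at *Runx2* with 100 kb on each side. The same held at *Runx3* and *Cbfb* where a peak had to cover at least 50% of its region. In 5 of the 80 the difference became 0, among them the line and TGF-β differences of *Runx1* and *Cbfb* at equal list length. In 7 the *Runx3* TGF-β difference, reported as 0, took values from −0.75 to 1. A further 6 turned the direction, all under scaling, and 1 brought the p under 0.05. Per 10000 peaks of the library, the TGF-β difference at *Runx1* was −0.228 and the line difference at *Runx2* −0.384. Per 1000 peaks of the same chromosome, the TGF-β differences were −1.63 at *Runx1* and −0.0826 at *Cbfb*, and the line differences −1.22 at *Runx2* and −0.158 at *Runx3*, while the line difference at *Runx1* was 6.45 with an exact permutation p of 0.0286. The count of regions separating the lines, 1 as reported, was 0 at equal list length and 0 in the upper part of each list by score, cut at its median, both of which hold fewer peaks. The count of regions with an unadjusted p under 0.05 between the lines, also 1, was 0 at equal list length and 0 among regions called in all 8 libraries, where the P2 region is absent by construction. The RUNX share was 4.55% in 200 bp windows (9.11% of all regions) and 36.4% with a shorter RUNX core (36.3% of all regions), and the ETS share 2.27% in 200 bp windows (9.06% of all regions).

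With each library left out in turn, the line difference ranged from 2.58 to 4.33 at *Runx1*, 0.75 to 2.42 at *Runx2*, 0.417 to 0.75 at *Runx3* and 0.667 to 1.92 at *Cbfb*. The TGF-β difference ranged from 0.833 to 3.17 at *Runx1*, 1.92 to 3.58 at *Runx2*, −0.167 to 0.167 at *Runx3* and 0.0833 to 1.42 at *Cbfb*. Only the *Runx2* TGF-β difference changed its side of the threshold, without replicate 2 of treated EpH4 cells. The number of regions separating the lines ranged from 1 to 3 and was 3 without replicate 1 of treated EpH4 cells or replicate 2 of untreated EpRas cells and 2 without replicate 2 of treated EpH4 cells. The number separating the treatments ranged from 0 to 1 and was 1 without replicate 2 of untreated EpH4 cells or replicate 1 of treated EpRas cells.

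The deviations of same-numbered libraries correlated between groups at −0.00356 to 0.0314. They are deviations of percentiles within each list, which cannot carry an effect on a whole list. Whether the replicate numbers pair the samples was therefore not settled. A replicate block left the differences as they were (3.25 at *Runx1* between the lines, exact permutation p = 0.111; 2.5 at *Runx2* for TGF-β, p = 0.167) and brought no locus under 0.05, which it could not do with a smallest p of 0.0556. The cause of the changes under scaling was not tested.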
